A study of Mus musculus with 27 samples.

Results

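The 4 steroid-metabolising genes of mouse liver, Hsd3b2, Hsd3b5, Hsd3b6 and Cyp7b1, were followed in 27 mice. The members were all probe sets that the array annotation assigned to these 4 gene symbols, which gave 5 probe sets (2 for Cyp7b1) of the 12488 on the array and 4 genes of the 8252 with a probe set of their own. They were selected on the measured difference between Veh and Con in these same arrays, so for the members that difference is described without a test. All 5 probe sets passed the filter on low signal. Each was above the median of its array in all 9 Con mice, and in Hsd3b5 this held for only 6 of 9 Veh and 7 of 9 Dex mice.

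Each Affymetrix array measured the liver RNA of 1 mouse, in 3 groups of 9 labelled Con, Veh and Dex. These names stand as the labels write them, since no label explains them, and no source used here states genotype, strain, sex, age, agent, dose or time. Beyond 1 liver per array the labels do not say how the mice of a group relate to each other, so p-values measure the spread between these mice. The values are linear intensities of a probe set, and levels of different probe sets are not compared with each other. In whole liver, fewer hepatocytes and less RNA per hepatocyte cannot be told apart.

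Enzymes of the Hsd3b family oxidise the 3-hydroxyl group of steroids or reduce the corresponding ketone, and in rodents several copies of the gene lie side by side. Hsd3b2 is best known as a hydroxysteroid dehydrogenase that forms keto-steroids. Hsd3b6 is a further dehydrogenase form, also known from the adrenal gland. Hsd3b5 is a liver form that acts mainly as a ketosteroid reductase and is known for its higher level in male than in female mouse liver. Cyp7b1, a cytochrome P450 of the endoplasmic reticulum, hydroxylates oxysterols and the steroid dehydroepiandrosterone, and is also higher in male mouse liver. The pulsatile growth hormone of males, acting through STAT5, is known to keep such male-biased liver genes on.

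The promoters of the 3 Hsd3b members are printed because these genes lie in 1 cluster and were low in several of the same mice below. Windows of 300 bases, from 250 before to 50 after the gene start, come from RefSeq (GRCm38.p6). The windows lie on the minus strand at chr3:98645485-98645784 for Hsd3b5, chr3:98724494-98724793 for Hsd3b2 and chr3:98814394-98814693 for Hsd3b6. The capitals mark the longest run that the Hsd3b5 and Hsd3b2 windows share, 19 bases just after the gene start. Cyp7b1 was not matched in the promoter table.
Hsd3b5: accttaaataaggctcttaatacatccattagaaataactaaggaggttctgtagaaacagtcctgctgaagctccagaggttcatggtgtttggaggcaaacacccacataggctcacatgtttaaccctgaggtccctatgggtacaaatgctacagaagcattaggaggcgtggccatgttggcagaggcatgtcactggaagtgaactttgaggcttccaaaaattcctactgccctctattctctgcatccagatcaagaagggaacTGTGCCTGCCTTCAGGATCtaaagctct
Hsd3b2: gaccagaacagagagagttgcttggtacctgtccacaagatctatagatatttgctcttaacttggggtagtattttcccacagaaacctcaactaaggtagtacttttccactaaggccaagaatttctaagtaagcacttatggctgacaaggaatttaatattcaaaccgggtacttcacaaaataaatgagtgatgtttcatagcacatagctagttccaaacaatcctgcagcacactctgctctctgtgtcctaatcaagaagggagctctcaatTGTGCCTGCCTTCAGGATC
Hsd3b6: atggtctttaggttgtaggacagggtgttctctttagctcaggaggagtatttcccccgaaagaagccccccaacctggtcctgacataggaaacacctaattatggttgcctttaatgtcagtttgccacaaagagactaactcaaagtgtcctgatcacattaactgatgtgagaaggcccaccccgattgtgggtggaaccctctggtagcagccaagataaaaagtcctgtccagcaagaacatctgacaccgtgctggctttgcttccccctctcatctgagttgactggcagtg

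The shared run began at base 23 after the gene start in Hsd3b5 and at base 32 in Hsd3b2, so it lies in the transcribed part. Over the aligned windows, Hsd3b5 and Hsd3b2 were 56.8% identical, Hsd3b5 and Hsd3b6 52.7%, and Hsd3b2 and Hsd3b6 53.0%. The Hsd3b6 window shared no run longer than 8 bases with either. 5 motifs searched were absent from all 3 windows on both strands: STAT5 (TTCNNNGAA, in 8.3% of 32851 promoters of the same length), the glucocorticoid receptor palindrome (AGAACA, any 3 bases, TGTTCT; 0.01%), FOXA (TGTTTAC, 3.65%), the HNF6 core (ATTGAT, 7.54%) and TATAAA (13.62%). The short element AGAACA, which is part of that palindrome and was in 18.97% of promoters, occurred once in the Hsd3b2 window (at -246 from the gene start) and in the Hsd3b6 window at -225 and -9, on opposite strands. These are letter matches in short windows and do not show binding. For comparison of the identities, the window of Hsd3b7, on another chromosome, was 50.3% identical to Hsd3b5, 50.4% to Hsd3b2 and 51.7% to Hsd3b6. The windows of Hsd3b3, a neighbour in the cluster, were 58.0% and 59.0% identical to Hsd3b5 and shared a run of 24 bases with it.

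Hsd3b5 was the member with the widest range. The probe set 94795_at read 1078 at the lowest, 1287 at the median and 1819 at the highest in Con, and the highest of the 9 was 1.69 times the lowest. In Veh it read 5.2, 617 and 980, and in Dex 1.6, 353 and 677 (lowest, median and highest). No Veh or Dex mouse reached the lowest Con mouse. In Veh, 4 of the 9 mice had a weak signal and lay apart: Veh 2, Veh 4 and Veh 7 read 6.2, 8.7 and 5.2, Veh 5 read 69.7, and the other 5 Veh mice read at least 617. In Dex the lowest mice were Dex 1 and Dex 2 (1.6 and 6.9) and Dex 8 (36.8), then Dex 3 at 170 and Dex 6 at 353, without separate clusters. The standard deviation between mice (log2) was 0.26 for Con, 3.41 for Veh and 3.09 for Dex. Among the 6784 tested probe sets this spread ranked 1st in Veh and 1st in Dex, and 5191st in Con.

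Hsd3b2 had several of these mice at its low end. The probe set 101659_at read 314, 656 and 862 in Con (lowest, median and highest), 16.3, 331 and 515 in Veh, and 13.3, 256 and 458 in Dex. The groups overlapped, because Con 9 at 314 lay below several Veh and Dex mice. Veh 2, Veh 4, Veh 5 and Veh 7 read 16.3, 46.4, 90.4 and 47.9, and the other 5 Veh mice at least 331. Dex 1 and Dex 2 read 28.8 and 13.3.

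Hsd3b6 had weaker signal, and its probe set 102729_f_at is of a type that may also read related sequences. It read 38.8, 117 and 185 in Con, 8.9, 44.6 and 112 in Veh, and 9.3, 46.1 and 94.8 in Dex. The Con value of 38.8 came from Con 9, and the other 8 Con mice read at least 105. The lowest Veh mice were Veh 2 and Veh 7 (8.9 and 11.2), and the lowest Dex mouse was Dex 2 (9.3). Because Hsd3b sequences resemble each other, cross-hybridisation between the Hsd3b probe sets was not tested.

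**Figure D1:**
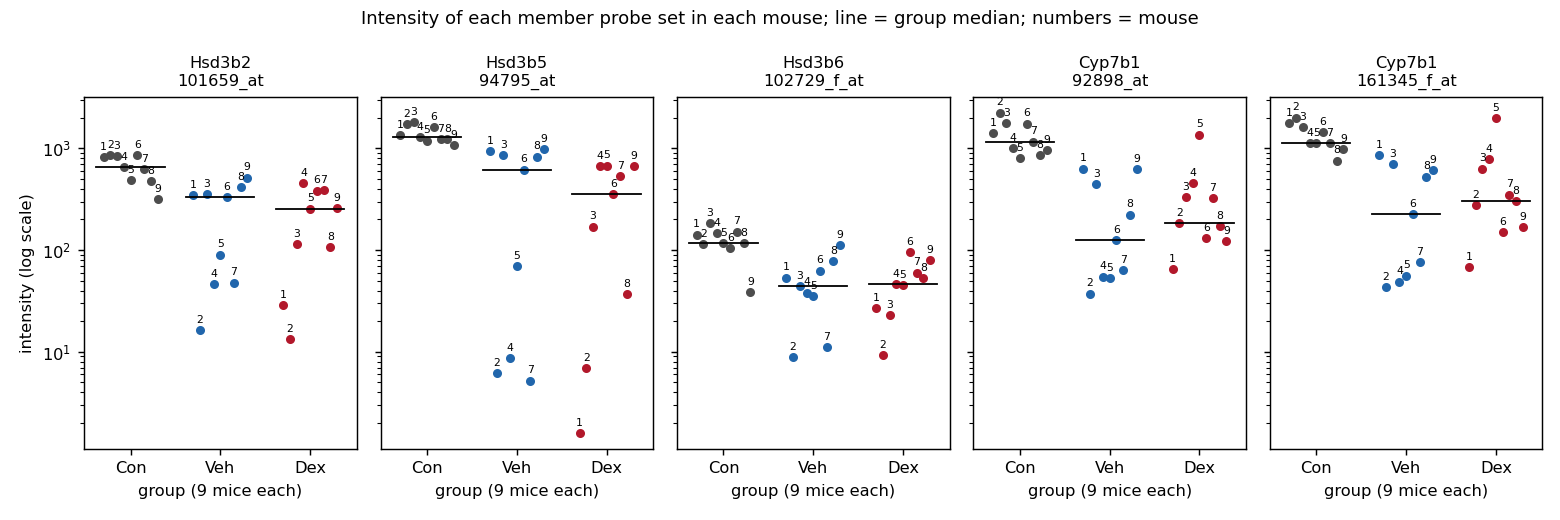
Linear intensity (log axis) of the 5 member probe sets in 9 mice each of Con, Veh and Dex, 1 point per mouse with its number and a line at the group median. In Hsd3b5 the Con points lie between 1078 and 1819, while Veh and Dex points spread from under 10 to 980.

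Cyp7b1 was read by 2 probe sets that gave a like order of mice. Probe set 92898_at read 799, 1165 and 2245 in Con (lowest, median and highest), 37.4, 125 and 632 in Veh, and 65.4, 183 and 1365 in Dex. Probe set 161345_f_at read 759, 1120 and 2002 in Con, 43.2, 227 and 854 in Veh, and 68.0, 305 and 1978 in Dex. Veh 2, Veh 4, Veh 5 and Veh 7 were again the 4 lowest Veh mice, at 37.4, 55.0, 53.2 and 63.4 on 92898_at. The Dex mouse that stood apart at the top was Dex 5, at 1365 and 1978, above the Con median on both probe sets, whereas Dex 1 was the lowest at 65.4 and 68.0. On 92898_at the Veh and Con mice did not overlap. The 2 probe sets differed on the log2 scale by at most 0.49 for a Con mouse, 1.24 for a Veh mouse and 0.93 for a Dex mouse.

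The first comparison asks how the levels in Dex stood against Con. All 5 member probe sets were lower in Dex, on the limma test over 6784 probe sets, where 16.4% passed in either direction and 13.2% passed as lower. This test uses the same Con mice that the choice of the members used, so it is not independent of that choice. Hsd3b5 differed by -3.48 ± 1.12 (SE, log2 scale, 95% interval -5.76 to -1.21, limma adjusted p = 0.0321), which is 11.2-fold, and all 9 Dex mice lay below the lowest Con mouse. Groups without overlap and with Dex lower were 0.56% of probe sets, and Hsd3b5 was the 1 member probe set of 5 among them. Hsd3b2 differed by -2.16 ± 0.63 (limma adjusted p = 0.0203), 4.47-fold, with all 9 Dex mice below the Con median and 6 below the lowest Con mouse. Hsd3b6 differed by -1.51 ± 0.43 (limma adjusted p = 0.0172), 2.86-fold, and 3 Dex mice lay below the lowest Con mouse.

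Cyp7b1 differed between Dex and Con by -2.42 ± 0.52 on 92898_at (limma adjusted p = 0.00338, 5.34-fold) and by -1.93 ± 0.58 on 161345_f_at (limma adjusted p = 0.0223, 3.82-fold). In both, 8 of 9 Dex mice lay below the Con median, the exception being Dex 5. By size, the fall of Hsd3b5 ranked 1st, Cyp7b1 2nd and 8th, Hsd3b2 5th and Hsd3b6 42nd among all probe sets, and the median of all probe sets was -0.20 (-0.043 under quantile normalization, with all 5 member calls kept). Leaving out Dex 1, Dex 2 and Dex 3 together, mice that stood apart in earlier results of these data, ended 4 of the 5 calls. The values were then -1.94 for Hsd3b5 (limma adjusted p = 0.249), -1.16 for Hsd3b2 (0.20), -0.93 for Hsd3b6 (0.166) and -1.66 for Cyp7b1 161345_f_at (0.0962), and Cyp7b1 92898_at stayed called at -2.13 (0.0279). Leaving out Dex 1 alone, or Dex 2 alone, ended the call of Hsd3b5 (limma adjusted p = 0.0766 and 0.0738), and leaving out Dex 1 ended that of 161345_f_at (0.0529). Testing all probe sets without a filter also ended the call of Hsd3b5 (-3.48, 0.0510).

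For the description of Veh against Con, the same fit gave -3.45 ± 1.12 for Hsd3b5, -2.11 ± 0.63 for Hsd3b2, -1.60 ± 0.43 for Hsd3b6, and -2.71 ± 0.58 and -3.09 ± 0.52 for Cyp7b1 (161345_f_at and 92898_at). On each probe set no Veh mouse reached the median of Con. In that comparison 3.86% of all probe sets passed, 2.67% as lower, and in 0.206% Veh lay below Con without overlap. Nothing is read from this for the members, of which Hsd3b5 and Cyp7b1 92898_at did not overlap.

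Between Dex and Veh no member passed the test. The Veh values used here are those on which the members were selected as low, so neither these differences nor their p-values are independent of that choice. Of the 5 probe sets 0 passed in limma and 0 had an unadjusted p under 0.05, where 0.265% of all probe sets passed and 1029 of 6784 had such an unadjusted p. The differences were -0.033 for Hsd3b5 (95% interval -2.31 to 2.24, limma adjusted p = 0.997), -0.046 for Hsd3b2 (-1.33 to 1.24, 0.984) and 0.084 for Hsd3b6 (-0.79 to 0.96, 0.950). For Cyp7b1 they were 0.67 (-0.40 to 1.74, 0.544) and 0.77 (-0.40 to 1.95, 0.520), on 92898_at and 161345_f_at. The intervals are wide, over 4-fold in either direction for Hsd3b5, and do not show that the groups are alike. The sign of the 3 Hsd3b differences changed with some settings, and without Dex 1, Dex 2 and Dex 3 they were 1.51 for Hsd3b5, 0.95 for Hsd3b2 and 0.67 for Hsd3b6, none called.

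**Figure D2:**
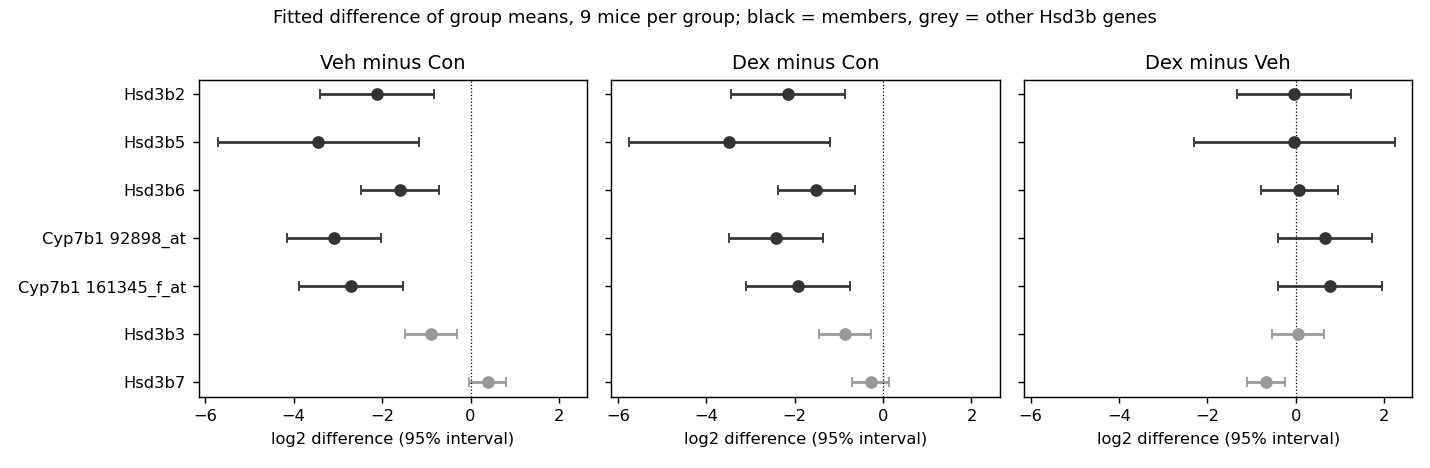
Fitted log2 difference with its 95% interval for the 5 member probe sets (black) and for Hsd3b3 and Hsd3b7 (grey), in the panels Veh minus Con, Dex minus Con and Dex minus Veh. The member intervals lie below 0 in the Dex minus Con panel, and span 0 in the Dex minus Veh panel. The members were selected on Veh minus Con, so their intervals in that panel are a description and not a test.

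The other Hsd3b genes behaved unevenly. Hsd3b3, a neighbour in the same cluster, read 48.3, 87.1 and 115 in Con (lowest, median and highest), 22.4, 37.7 and 79.6 in Veh, and 13.1, 48.3 and 92.4 in Dex. It was lower in Dex than in Con (-0.86 ± 0.29, limma adjusted p = 0.0402), a call that ended with 10 of the 27 mice when left out singly (Con 1, 4, 5, 6, 7 and 8 and Dex 1, 2, 4 and 7, adjusted p up to 0.0943). The call also ended under quantile normalization, without a filter, with array weights, with only those groups in the fit, and without Dex 1, Dex 2 and Dex 3 (up to 0.234). In Veh against Con its difference of -0.90 did not pass (limma adjusted p = 0.0676). Hsd3b7, which acts on bile acid precursors and lies on another chromosome, read 856, 1244 and 1718 in Con, 999, 1669 and 1982 in Veh, and 369, 1148 and 1679 in Dex, and passed in no comparison. Hsd3b1, the form of adrenal and gonad, and a probe set shared by Hsd3b4 and other sequences were above the array median in 0 of 27 arrays.

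Whether the members went together from mouse to mouse was first described by their order. Veh 2, Veh 4, Veh 5 and Veh 7 were the 4 lowest Veh mice for all 5 probe sets. Of the 9 Dex mice, Dex 1, Dex 2 and Dex 3 were among the 4 lowest for all 3 Hsd3b probe sets, and only Dex 1 was for all 5. In Con, Con 8 and Con 9 were among the 4 lowest for all 5.

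For correlations, 161345_f_at stood for Cyp7b1. Within Con, Hsd3b2 and Hsd3b5 were correlated over 9 mice (log2 Pearson r = 0.855, exact permutation p = 0.00333, adjusted p = 0.0195 over 12 pairs, Spearman rho 0.933, adjusted 0.00899), and r was 0.831 without Con 8 and Con 9. Hsd3b2 and Cyp7b1 had r = 0.794 (exact permutation p = 0.00986, adjusted p = 0.0296, rho 0.867, adjusted 0.0271), and 0.821 without the 2 mice farthest from the Hsd3b2 median. Hsd3b5 and Cyp7b1 had r = 0.778 (exact permutation p = 0.0152, adjusted p = 0.0364), but rho 0.783 did not pass (0.0689) and r was 0.627 without Con 2 and Con 3. The 3 Con pairs with Hsd3b6 did not pass (r from 0.342 to 0.735). Within Dex, Hsd3b2 and Hsd3b5 had r = 0.929 (exact permutation p = 0.00134, adjusted p = 0.0161), though rho was 0.717 (adjusted 0.111), and without Dex 1 and Dex 2 r was 0.810. Hsd3b2 and Hsd3b6 in Dex had r = 0.850 (exact permutation p = 0.00487, adjusted p = 0.0195), which fell to 0.544 without those 2 mice, so it rests on them. Hsd3b5 and Hsd3b6 had r = 0.679 in Dex without passing (exact permutation p = 0.0420, adjusted p = 0.0720). No pair with Cyp7b1 passed in Dex (r from -0.0489 to 0.556). Veh mice fell into separate clusters of 4 and 5 for Hsd3b2, Hsd3b5 and Cyp7b1, so no pooled correlation is given there. All values of a mouse come from 1 array, so these correlations share any array-wide effect.

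**Figure D3:**
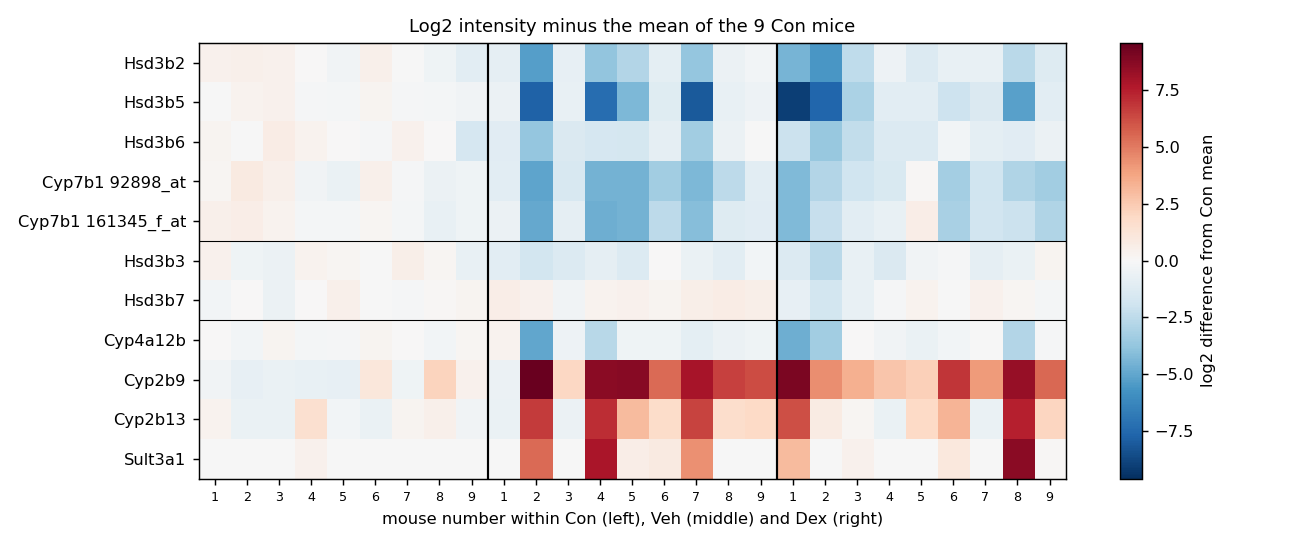
Heat map of log2 intensity minus the Con mean for 27 mice (columns, grouped as Con, Veh and Dex) and the members with Hsd3b3, Hsd3b7, Cyp4a12b, Cyp2b9, Cyp2b13 and Sult3a1 (rows). Veh 2, Veh 4, Veh 5 and Veh 7 are low for the members and high for Cyp2b9, which reached 3288 in Veh 2.

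The genes most like each member were found from deviations from the group means over the 27 arrays (Pearson r, 5199 other genes, a description in which the arrays share chip-wide effects). For Hsd3b2 they were Hsd3b5 (0.937), Hsd3b6 (0.846), Cela1 (0.832), Cyp4a12b (0.819) and Klkb1 (0.768). For Hsd3b5 they were Hsd3b2, Cyp4a12b (0.831), Egfr (0.826), Cela1 (0.820) and Mug1 (0.810), and for Hsd3b6 they were Hsd3b2, Lactb2 (0.820), Klkb1 (0.805), Cfap20 (0.792) and Chmp7 (0.791). For Cyp7b1 they were Egfr (0.808), Mug-ps1 (0.770), Hsd3b5 (0.757), Mug1 (0.752) and Slc2a8 (0.748). At the other end stood Lbp (-0.810), Cyp2c39 (-0.757) and Ppa1 (-0.751) for Hsd3b2, Cyp2c39 (-0.815), Tmsb4x (-0.783) and Lbp (-0.731) for Hsd3b5, Lbp (-0.845), Ppa1 (-0.814) and Ifi27 (-0.811) for Hsd3b6, and Cyp2b9 (-0.820), Tmsb4x (-0.791) and Tcn2 (-0.790) for Cyp7b1. Lbp encodes the lipopolysaccharide-binding protein of the acute phase. The members Hsd3b6 and Cyp7b1 were less alike (r = 0.40). All these r include the Veh mice in separate clusters, for which no correlation within Veh is given, and can reflect that split.

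Because Hsd3b5 and Cyp7b1 are sex-biased genes of liver, other genes with known sex bias were set beside them. Of 24 male-biased genes other than the members, 9 were tested, and in Dex against Con 1 fell in limma (Keg1, -1.55 ± 0.35, adjusted p = 0.00442), 8 of 9 lay lower, and the median was -1.11 against -0.20 for all probe sets. Over all probe sets 67.4% lay lower and 13.2% passed as lower. Keg1, an acyltransferase-like gene of kidney and liver, read 484, 899 and 1167 in Con, 144, 588 and 827 in Veh, and 77.9, 349 and 719 in Dex. In Veh against Con, all 9 lay lower with a median of -0.82. There 69.9% of all probe sets lay lower, with a median of -0.19, and 2.67% passed as lower. Of the 9 male-biased genes, 1 fell (Gstp1, a glutathione transferase, -1.08 ± 0.30, limma adjusted p = 0.0411), a call that 14 of the 27 single omissions ended, each of the 9 Con mice and Veh 2, 4, 5, 6 and 7 (adjusted p up to 0.0911). It ended too without a filter, with the replicate block, with the beta-actin ratio and without a mean trend (up to 0.116). Cyp4a12b, a fatty acid hydroxylase, was between 2193 and 3253 in Con and differed by -1.37 in Dex and -1.16 in Veh without passing (limma adjusted p = 0.109 and 0.231). Its lowest mice were Veh 2 (83.3) and Veh 4 (428), and Dex 1 (102), Dex 2 (265) and Dex 8 (374). Egfr, the epidermal growth factor receptor, differed by -1.81 in Dex and -2.23 in Veh without passing (limma adjusted p = 0.0837 and 0.0701). Mup3 and Cyp2d9 stayed near 0. Mup3 differed by 0.12 in Dex and -0.034 in Veh (limma adjusted p = 0.705 and 0.930), and Cyp2d9 by -0.0057 and -0.12 (0.988 and 0.744). None of the 9 passed in Dex against Veh, where 1 had an unadjusted p under 0.05 (1029 of all 6784 probe sets).

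Of 33 listed female-biased genes, 15 were on the array and 5 were tested. Cux2, Ntrk2, Cd36 and Vldlr were never above the array median. In limma 3 of the 5 rose both in Dex and in Veh against Con: the cytochromes P450 Cyp2b9, Cyp2c38 and Cyp2c39. The other tested genes did not pass: the steroid hydroxylase Cyp17a1 differed by 1.02 in Dex and 0.38 in Veh (limma adjusted p = 0.0877 and 0.590), and the lipoprotein lipase Lpl by -0.69 and 0.015 (0.317 and 0.989). Over all probe sets 3.26% rose in Dex and 1.19% in Veh, and both comparisons share the Con mice. Cyp2c38 read 694, 1098 and 1601 in Con, 1275, 2516 and 3131 in Veh, and 1699, 2621 and 5046 in Dex, a rise of 1.29 ± 0.21 in Dex (limma adjusted p = 0.000309) and 1.01 ± 0.21 in Veh (0.00781). Cyp2c39 rose by 1.49 ± 0.33 in Dex (limma adjusted p = 0.00352) and by 1.52 ± 0.33 in Veh (0.00968). With a term for RNA quality, the beta-actin ratio given below, both Veh calls ended (0.0576 and 0.0520). Cyp2b9 was at 2.1 to 20.2 in Con and above the array median in 0 of 9 mice there, so no fold is given. It was above that median in 7 Veh and 9 Dex mice, so it passed the filter only through the groups where it was high. Its calls against Con are therefore not independent of the filter. The mice lowest in the members, Veh 2, Veh 4, Veh 5 and Veh 7, read 3288, 1888, 1966 and 1102, and the other 5 read at most 442. In Dex it was highest in Dex 1 (2396) and Dex 8 (1516), and Dex 2, second lowest of Dex in Hsd3b5, read 100.5. Cyp2b13, also a cytochrome P450, and the sulfotransferase Sult3a1 were looked at after their values were seen. Cyp2b13 read 411, 549.5, 32.7 and 352 in those 4 Veh mice, at most 15.1 in the other 5, and 725 and 292 in Dex 8 and Dex 1, with the other 7 Dex mice at most at 37.7 and Con at most at 11.4. Sult3a1 read 120, 625, 4.3 and 55.1 in those Veh mice, at most 5.0 in the other 5, and 1105 and 22.4 in Dex 8 and Dex 1, with the other 7 Dex mice at most at 5.3 and Con at most at 3.6. Veh 5 and Dex 2, low for Hsd3b5, were thus not high for Sult3a1.

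Within the 9 Dex mice, Cyp7b1 and Cyp2b9 had a Pearson r of -0.838 and a Spearman rho of -0.90 (log2), and r was -0.685 without Dex 1 and Dex 5. Cyp2b9 had the lowest correlation with Cyp7b1 of the 5199 genes over arrays that include these mice, so this is a description without a test. With Cyp2b9, r in Dex was -0.612 for Hsd3b5, -0.361 for Hsd3b2 and 0.144 for Hsd3b6.

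**Figure D4:**
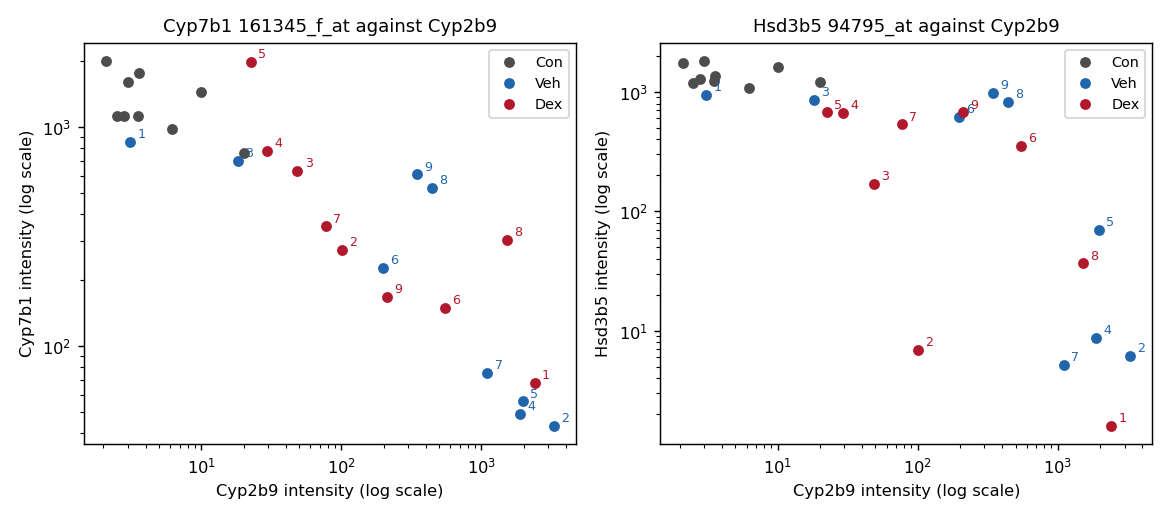
Intensity of Cyp7b1 (probe set 161345_f_at, left) and Hsd3b5 (right) against that of Cyp2b9, all on log axes, 1 point per mouse coloured by group, with mouse numbers for Veh and Dex. Among Dex mice, Dex 5 has the highest Cyp7b1 (1978) and the lowest Cyp2b9 (22.6).

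Regulators of growth hormone and STAT5 signalling were measured for 17 of 22 genes. Ghr, the growth hormone receptor, fell in Dex against Con (-0.76 ± 0.22, limma adjusted p = 0.0201), as did the liver factor Foxa1 (-0.95 ± 0.32, 0.0427), while the nuclear receptor Nr1i3 rose (0.73 ± 0.21, 0.0171). Without Dex 1, Dex 2 and Dex 3 the calls of Ghr and Foxa1 ended (0.0837 and 0.191), and 11 of 27 single omissions also ended that of Foxa1 (up to 0.0953). The Foxa1 call ended too under quantile normalization (0.124), without a filter (0.0741) and with the beta-actin or Gapdh ratio (0.0518 and 0.0528). Other probe sets of Nr1i3 gave -0.15 (0.605) and 0.55 (0.0276). A second probe set of Ghr gave -1.02 in Dex against Con (limma adjusted p = 0.0215). In Veh against Con that probe set gave -0.96 (0.0632), and the first gave 0.010 (0.983). In Veh against Con, Foxa1 fell by 1.29 ± 0.32 and Hnf4a, a hepatocyte factor, by 1.16 ± 0.29 (both limma adjusted p = 0.0281). These 2 Veh calls ended under quantile normalization and with either RNA quality ratio (limma adjusted p up to 0.0813 and 0.216), and when Con 3, Veh 2 or Veh 5, or Con 6 for Foxa1 and Con 8 for Hnf4a, was left out (up to 0.0613 and 0.0627). The medians were -0.17 in Dex and near 0 in Veh. Of the 17 genes 2 fell and 1 rose in Dex, where 13.2% of all probe sets fell and 3.26% rose. In Veh 2 fell, where 2.67% of all probe sets fell. Socs2, a STAT5 target, differed by -1.19 and -1.50 without passing (limma adjusted p = 0.0857 and 0.0694).

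Of 38 other listed enzymes of steroid metabolism, 15 were tested, and in Dex against Con Hsd11b1, which regenerates active glucocorticoid, rose (0.52 ± 0.14, limma adjusted p = 0.0140), while the glucuronosyltransferase Ugt2b34 (-0.73 ± 0.15, 0.00206) and the 17-hydroxysteroid dehydrogenase Hsd17b2 (-0.77 ± 0.22, 0.0171) fell, with a median of -0.24. Under quantile normalization 6 fell and 0 rose, the call of Hsd17b2 ended (0.0549), and that of Hsd11b1 ended there and without Dex 1, Dex 2 and Dex 3. In limma 0 of the 15 passed in Veh against Con (4 with an unadjusted p under 0.05) and 0 in Dex against Veh (3). Over all 6784 probe sets 1598 and 1029 had such an unadjusted p in these comparisons. Under quantile normalization 2 of the 15 enzymes fell in Veh against Con. Of 15 tested oxysterol and bile acid genes, the bile acid receptor Nr1h4 fell in Dex (-0.82 ± 0.23, limma adjusted p = 0.0164) and in Veh (-0.88, 0.0326) against Con. The Dex call ended without Dex 1, Dex 2 and Dex 3 (0.135). The Veh call ended under quantile normalization, without a filter, with either RNA quality ratio (up to 0.104), and when Con 2, 3 or 6 or Veh 2, 4, 5 or 8 was left out (up to 0.0764). Under quantile normalization 3 of the 15 oxysterol and bile acid genes fell in Dex and 0 in Veh, both against Con. Without that normalization, 13.2% of all probe sets fell and 3.26% rose in Dex, and 2.67% fell in Veh, both against Con. Cyp7a1, the rate-limiting enzyme of bile acid synthesis, differed by -0.47 in Dex and -1.26 in Veh without passing (limma adjusted p = 0.541 and 0.119). In Dex against Veh, limma called 0 of these 15 genes, 0 of the 17 regulators and 0 of the 5 female-biased genes, with 3, 4 and 0 at an unadjusted p under 0.05.

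Markers of other cells were set beside the members. All 9 measured hepatocyte genes were above the array median in every array, and their summed intensity was 79510 to 135246 in Con, 79812 to 161523 in Veh and 89284 to 210512 in Dex. In limma 5 of them rose in Dex against Con with a median of 0.53, but under quantile normalization 1 rose and 1 fell, with a median of 0.0091. Among all probe sets 3.26% rose and 13.2% fell in limma in Dex against Con, the shares for each cell type here. Without Dex 1, Dex 2 and Dex 3 all 5 calls ended (Alb, Apoa1, Serpina1c, Cps1 and Tat), and 19 of 27 single omissions ended that of Serpina1c. The 12 macrophage genes on the array summed to 1001 to 1849, 863 to 2658 and 653 to 1504 in these groups, and 3 of 11 tested fell in Dex against Con (1 under quantile normalization). Without Dex 1, Dex 2 and Dex 3 the calls of Cd5l and Ctss ended, and that of Mrc1 was kept. The 11 endothelial, stellate and duct genes summed to 834 to 1383, 965 to 1644 and 729 to 1447, and 1 of 6 tested, Cdh5, fell in Dex, a call that ended under quantile normalization, without a filter, with the replicate block and with only those groups (limma adjusted p up to 0.21), while Tek, Krt19, Krt7 and Epcam were never above the array median. The 8 lymphocyte genes summed to 131.3 to 299.8, 118.6 to 341.2 and 179.5 to 431, with 0 of 4 tested passing and Cd3g and Cd8a never above the median. The 7 genes of adrenal and gonad summed to 659 to 1156, 661 to 980 and 732 to 1356, with 0 of 4 tested passing in limma in any comparison. At an unadjusted p under 0.05 there were 0 of the 4 in Dex against Con, 0 in Veh against Con and 3 in Dex against Veh, where 3 of 4 lay higher with a median of 0.37. Over all 6784 probe sets 2138, 1598 and 1029 had such a p in these comparisons, and 53.4% lay lower in Dex than in Veh. The female transcript Xist and the Y-linked Kdm5d and Uty were above the array median in 0 of 27 arrays, and Eif2s3y, read by a probe set that may also detect its X-linked copy, was above it in 9 Con, 9 Veh and 6 Dex mice. Eif2s3y was lower in Dex than in Con (-0.81 ± 0.23, limma adjusted p = 0.0167). That call ended under quantile normalization and without Dex 1, Dex 2 and Dex 3 (up to 0.0807). The part of these genes in the member values was not tested.

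RNA quality moved with the groups as follows. The log2 ratio of 3' to 5' beta-actin control signal averaged 0.95 ± 0.24 for Con, 1.27 ± 0.32 for Veh and 0.89 ± 0.17 for Dex (SD, n = 9). That of Gapdh averaged 0.35 ± 0.12, 0.50 ± 0.25 and 0.24 ± 0.16. For Veh 2, Veh 4, Veh 5 and Veh 7 the beta-actin ratio came to 1.92, 1.10, 0.94 and 1.14, in a Veh range of 0.94 to 1.92. Their Gapdh ratio came to 0.68, 0.22, 0.57 and 0.31, in a Veh range of 0.22 to 0.99. The part of RNA quality in the low values of these mice was not tested. When the fit held the beta-actin ratio, the Dex minus Con values of the members were -3.49 for Hsd3b5, -2.20 for Hsd3b2, -1.57 for Hsd3b6, and -2.46 and -1.97 for Cyp7b1, and all 5 stayed called (limma adjusted p from 0.00359 to 0.0365). With the Gapdh ratio the call of Hsd3b5 ended (-3.24, limma adjusted p = 0.0522), and the other 4 stayed called (0.00516 to 0.0359).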

How the data were processed

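Liver RNA of 27 mice was hybridised to 27 Affymetrix arrays, 9 per group, with 12488 probe sets. Per the labels, RNA was extracted with Trizol and RNeasy kits and checked on a Bioanalyzer. The authors deposited 1 linear intensity per probe set and array, and every array has a trimmed mean (2% from each end) of 100.09 to 100.15, so a scaling factor had been applied. The summarising software is not stated. Precision rests on the number of arrays, as they have no read depth. Array medians were 17.6 to 33.3, and 5.16% to 15.1% of values were at or under the floor. The lowest medians were those of Veh 2 (17.6), Veh 5 (18.25) and Dex 2 (18.4), mice low for the Hsd3b members. Other mice low for Hsd3b5 had 22.5 (Veh 4), 24.4 (Veh 7), 20.7 (Dex 1) and 33.3 (Dex 8). The part of array brightness in the member values was not tested.

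Values under the 10th percentile of positive intensities (2.6) were raised to that value before taking log2. Probe sets above the array median in at least 9 of 27 arrays were tested (6784, without the 66 controls). Group means of all 27 arrays were fitted with limma 3.58.1 in R 4.3.3 (24 residual degrees of freedom, moderated with a mean trend; two-sided p-values adjusted by Benjamini-Hochberg over 6784 probe sets, threshold 0.05), a step tested on simulated data. Differences are log2 with standard errors. Where a gene had several tested probe sets, the one with the highest mean stood for it. Of all probe sets, 10855 have 1 gene symbol, 396 several and 1237 none. Correlations used scipy 1.17.1.

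The members, gene lists and the omission of Dex 1 to Dex 3 were chosen with earlier results of these data known. The genes named are the members, other Hsd3b genes, in each list those past the threshold (at most 5, or the 3 with the smallest p) and those most like each member. The text gives some of these only in counts, and also names Mup3 and Cyp2d9, the tested male-biased genes nearest to 0 against Con. The main fit did not pair the mice by label number. Same-numbered deviations correlated between -0.195 and 0.187. They were not compared with those of differently numbered mice, so this does not settle whether the numbers carry a pairing.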

Additional observations from a re-analysis of the deposited data

Results flagged for a closer look

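In 10 of 180 groups of 9 mice checked, 1 mouse lay apart from the others of its group by Dixon's ratio, and chance alone gives about 1 group in 20. Among the members this was Con 9, low for Hsd3b6 at 5.28 (log2 intensity) where the next mouse was at 6.71. Veh 3 was low for Hsd3b7 at 9.96. Veh 2, the lowest Veh mouse for both Cyp7b1 probe sets, was high for the macrophage and hepatocyte gene Cd14 at 8.28 and for the steroid enzyme Cyp17a1 at 6.76. Dex 1, the lowest Dex mouse for Hsd3b5 and Cyp7b1, was low for Egfr at 3 and for the collagen gene Col1a1 at 3.38. The other values were Cd4 in Con 6 at 3.41, Cd79b in Con 7 at 2.29, Star in Con 6 at 3.20, all low, and Nr5a1 in Dex 7 at 9.63, high.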

How the results depend on the processing

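Across 12 settings and 27 omissions of a single mouse, Cyp7b1 92898_at stayed called in Dex against Con throughout (adjusted p up to 0.0279). Hsd3b5 ended without a filter (-3.48), with the Gapdh ratio as a covariate (-3.24) and without Dex 1 to Dex 3 (-1.94). That omission also ended Hsd3b2 (-1.16), Hsd3b6 (-0.93) and Cyp7b1 161345_f_at (-1.66). Omitting single mice moved the Dex minus Con values within -3.79 to -2.79 for Hsd3b5 and -2.26 to -1.65 for Cyp7b1 161345_f_at. The Dex minus Veh sign reversed for Hsd3b2 with array weights (0.17) and without Dex 1 to Dex 3 (0.95), for Hsd3b5 with the floor at the 20th percentile (0.078), the Gapdh ratio (0.50), array weights (0.33) and without those mice (1.51), and for Hsd3b6 with the beta-actin (-0.26) and Gapdh ratios (-0.23). Single omissions gave -0.44 to 0.38, -0.61 to 0.66 and -0.18 to 0.35 for these 3 genes. The Veh minus Con values of the members kept their direction. Counts of called probe sets in Dex against Veh (18) were 7 without a filter, 3 with the replicate block, 1 with the beta-actin ratio, 5 without a mean trend, 4 with array weights, 1 with only those groups, 1 without Dex 1 to Dex 3, and 4 to 124 with single omissions. In Dex against Con (1115) they were 658 under quantile normalization, 405 without Dex 1 to Dex 3 and 785 to 1488 with single omissions. In Veh against Con (262) they were 85 under quantile normalization, 116 without a filter, 33 with the beta-actin and 75 with the Gapdh ratio, 1158 with array weights, 656 with only those groups, 453 without Dex 1 to Dex 3, and 85 to 586 with single omissions. The replicate block gave 1120 and 311 in these last comparisons and changed no member's call. The causes were not tested.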
